A study of Homo sapiens with 18 samples.

Results

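The genes described here were 7 anti-apoptotic genes, chosen by symbol from the 17155 genes of the deposited table. They were BCL2, BCL2L1, BCL2L2, MCL1 and BCL2A1, which encode the pro-survival branch of the BCL2 family, CFLAR, which encodes the death-receptor inhibitor c-FLIP, and XIAP, which encodes a caspase inhibitor. Polyadenylated RNA was sequenced from GM12878, an Epstein-Barr virus (EBV)-transformed lymphoblastoid B-cell line, in 18 libraries that form 6 groups of 3. The control carried a non-targeting guide RNA, and the other groups carried guides against 1 subunit of the transcription factor NF-kB each: p50 (gene NFKB1), p52 (NFKB2), RelA (RELA), RelB (RELB) or cRel (REL). All groups were transduced with lentivirus and then kept in puromycin (3 µg/ml) for 5 days, knockouts were checked by immunoblot, and the labels give every group the genotype Wildtype LMP1. The cells were edited populations of a single line, and the sources used here do not say whether the 3 libraries of a group came from separately edited cultures. The p-values are therefore about the spread between libraries.

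The pro-survival BCL2 proteins hold the pore-forming proteins BAX and BAK in check at the mitochondrial membrane, and BH3-only proteins release that hold by binding them. Once the membrane is breached, cytochrome c triggers the caspases, which XIAP inhibits directly. Death receptors such as FAS reach the same caspases through caspase-8, whose activation c-FLIP limits. In EBV-transformed B cells the viral membrane protein LMP1 keeps NF-kB active, and BCL2A1, BCL2L1, CFLAR and XIAP are textbook NF-kB targets. RelA and cRel are the activating subunits of the canonical pathway, with p50 as partner, and RelB with p52 serves the non-canonical pathway.

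Values are the deposited normalised read counts, that is, reads divided by 1 size factor per library. Differences come from limma on log2(value + 1) in a single fit of all 18 libraries. A gene was called when its Benjamini-Hochberg adjusted p was under 0.05 among the 12381 genes whose mean over all libraries was 10 or more. All 7 genes passed that filter, with every value at or above it. Depth ranged from 15.2 to 37.5 M reads per library, with a median of 22.1 M, and 1 read was worth 0.646 to 1.46 units. Control 3, p52 knockout 3 and RelA knockout 2 stood apart by a tilt towards short transcripts. The rank correlation of their deviation from the group mean with transcript length was -0.53, -0.44 and -0.36. Expression of the targeted gene fell for NFKB1 in the p50 knockout (log2 fold change -0.59, limma adjusted p = 3.13e-07), NFKB2 in the p52 knockout (-0.44, 1.48e-06; -0.26 after quantile normalisation) and RELA in the RelA knockout (-0.69, 2.63e-07). RELB rose in the libraries labelled RelB knockout (0.31, limma adjusted p = 1.69e-04), and REL did not differ in those labelled cRel knockout (-0.02, 0.959; -0.33 and 0.0037 without the 3 libraries named above). Those groups are called cRel-labelled and RelB-labelled below, because the RNA of the targeted gene did not fall. RNA level does not show whether the protein was lost, which the submitters checked by immunoblot. The changes were not limited to the targeted gene. In the RelA knockout NFKB1, NFKB2 and RELB fell as well (-0.46, -0.36 and -0.82, limma adjusted p = 3.42e-05, 2.84e-04 and 1.30e-08). RELB also rose in the cRel-labelled cells and the p50 and p52 knockouts (0.38, 0.23 and 0.36, limma adjusted p = 3.74e-04, 0.00632 and 5.35e-05). RELA rose in the p52 knockout (0.28, limma adjusted p = 0.00101). In the RelB-labelled cells NFKB1 and REL fell (-0.29 and -0.49, limma adjusted p = 2.79e-04 and 0.024). NFKB2 and RELA rose there (0.34 and 0.16, limma adjusted p = 1.58e-05 and 0.0366). The NFKB1 call was lost after quantile normalisation (0.0501), and the RELA call without any 1 library of either group. The REL call was lost without control 1 (0.118) or 2 (0.173) or RelB-labelled 1 (0.0561) or 3 (0.0719). The 6 B-cell markers were at high levels in every library, with MS4A1 at 20072 to 29502 units. CD79A fell in the p50 and p52 knockouts (-0.53 and -0.33, limma adjusted p = 2.09e-06 and 1.54e-04). PAX5 fell in the p52 knockout and rose in the RelB-labelled cells (-0.20 and 0.30, limma adjusted p = 0.0381 and 0.00195). MS4A1 fell in the RelB-labelled cells (-0.19, limma adjusted p = 0.0247), and no other change of these markers was called.

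Each knockout was first compared with the control. Of the 35 comparisons of a gene with the control, 22 were called, 14 higher and 8 lower. BCL2L1 was the only gene of the 7 called in all 5 comparisons, and it was lower in each. BCL2, BCL2L2 and XIAP rose in the p50 and p52 knockouts and the RelB-labelled cells, BCL2A1 fell in the cRel-labelled cells and the RelA knockout, and MCL1 fell in the RelB-labelled cells. In the cRel-labelled cells 0 of 7 rose and 2 fell, where 6.09% of all tested genes were called, 4.17% higher and 1.92% lower. In the RelA knockout 1 rose and 2 fell, where 5.55% of tested genes were called, 2.92% higher and 2.63% lower. In the p50 knockout 4 rose and 1 fell, against 36.7% of tested genes called, 17% higher and 19.6% lower. The p52 knockout had 5 genes that rose and 1 that fell, against 50.8%, 24.5% higher and 26.4% lower. In the RelB-labelled cells 4 rose and 2 fell, against 67.8%, 33.1% higher and 34.7% lower. The median log2 fold change of the 7 genes was 0.03 in the cRel-labelled cells, 0.19 in the p50 knockout, 0.44 in the p52 knockout, -0.02 in the RelA knockout and 0.25 in the RelB-labelled cells. The medians over all tested genes lay between -0.02 and 0.00. All 5 comparisons share the same 3 control libraries, so their directions are not independent of one another. In bulk RNA, fewer cells of a type and less RNA per cell cannot be told apart.

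The knockouts were then compared with one another, which does not involve the control. A moderated F-test over the 5 knockouts was passed by all 7 genes, where 78.8% of tested genes passed, with adjusted p from 1.10e-11 for BCL2 to 1.43e-04 for XIAP (limma). Over the 70 comparisons of a gene between 2 knockouts, 44 were called. CFLAR alone differed between the p50 and p52 knockouts, where 22.2% of tested genes were called. BCL2 and BCL2L1 differed between the cRel-labelled cells and the RelA knockout, where 11% were called. The cRel-labelled cells differed in 4 genes from the p50 knockout (31.1% of tested genes called), in 6 from the p52 knockout (45.9%) and in 5 from the RelB-labelled cells (65.8%). The RelA knockout differed in 5 genes from the p50 knockout (39.2%), in 5 from the p52 knockout (52.5%) and in 6 from the RelB-labelled cells (67.2%). The RelB-labelled cells differed in 5 genes from the p50 knockout (53.1%) and in 5 from the p52 knockout (45.4%).

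**Figure D1:**
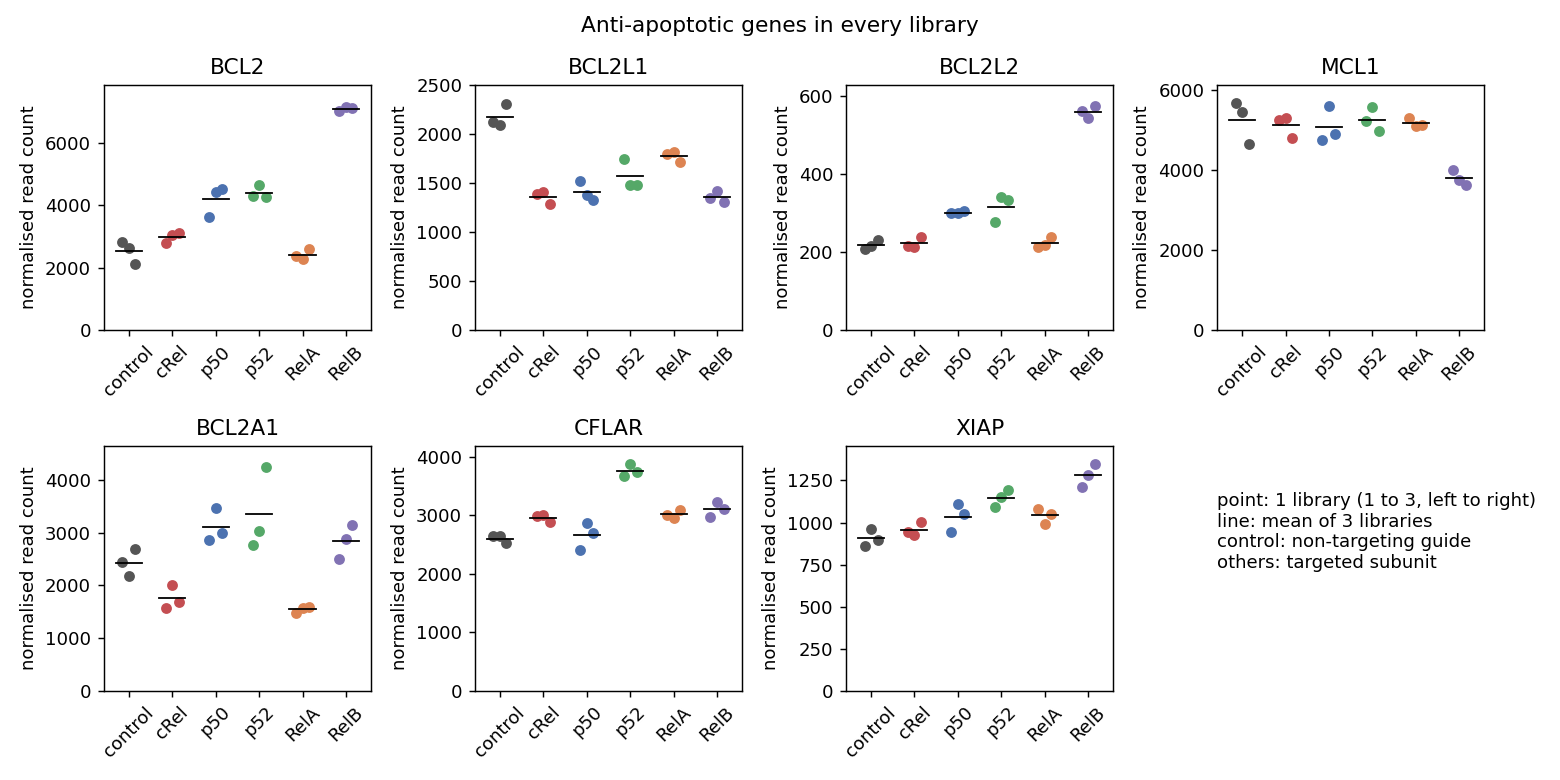
Normalised read count of the 7 anti-apoptotic genes in every library, with 1 panel per gene, the groups on the horizontal axis, points for libraries and lines for the means of 3. BCL2 and BCL2L2 are highest in the RelB-labelled libraries, BCL2L1 is highest in the control and MCL1 is lowest in the RelB-labelled libraries.

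**Figure D2:**
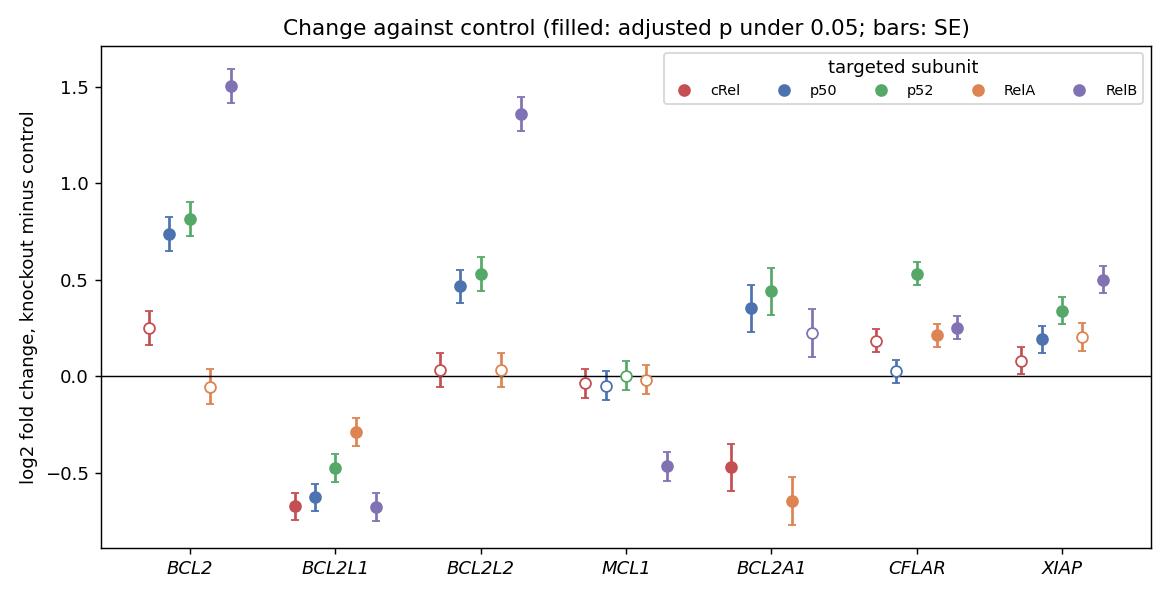
Log2 fold change against the control for each gene in each knockout, with bars of 1 SE from limma; filled points had an adjusted p under 0.05. BCL2L1 lies below 0 in all 5 comparisons, and the points of BCL2 and BCL2L2 in the RelB-labelled cells, at 1.51 and 1.36, lie above all others.

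BCL2 (ENSG00000171791), the founding member of the family and the protein that the drug venetoclax blocks, showed the widest range of the 7 genes. The control libraries had 2812, 2621 and 2122 units (2518 ± 356, SD, n = 3), and the RelB-labelled libraries had 7012, 7163 and 7133 (7103 ± 80.0). All RelB-labelled libraries lay far above every other library. The log2 fold change was 1.51 with an SE of 0.09, a 2.84-fold rise (limma adjusted p = 3.23e-12), and 3.34% of tested genes lay at least as far up in that comparison.

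BCL2 also rose in the p50 knockout, with 3638, 4424 and 4517 units (4193 ± 483), by 0.74 (limma adjusted p = 2.54e-06). It rose in the p52 knockout, with 4284, 4660 and 4266 units (4403 ± 223), by 0.81 (limma adjusted p = 1.65e-07). Every library of both knockouts lay above every control. The cRel-labelled libraries, at 2777, 3052 and 3114 units (2981 ± 179), and the RelA knockout, at 2380, 2266 and 2594 (2414 ± 166), overlapped the control. Their log2 fold changes were 0.25 (limma adjusted p = 0.102) and -0.05 (0.785). The cRel-labelled value passed the test in 1 of 17 other fits, the one without control 1 (0.34, limma adjusted p = 0.0381). Over those fits it ran from 0.13 to 0.34. Control 3, the lowest control for BCL2, is among the libraries with a tilt towards short transcripts, and the part of that tilt was not tested.

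The order of BCL2 levels was RelB-labelled, p52, p50, cRel-labelled, control and RelA, from high to low. Between knockouts, 9 of the 10 pairs differed. The p50 and p52 knockouts were the neighbours that the test did not separate (-0.08, limma adjusted p = 0.598). The RelB-labelled cells stood above the p52 knockout by 0.69 (limma adjusted p = 1.66e-06) and above the p50 knockout by 0.77 (2.79e-07). The cRel-labelled cells stood above the RelA knockout by 0.31 (limma adjusted p = 0.0273), a call lost without cRel-labelled 2 (0.101) or 3 (0.121) and without RelA 1 (0.0859) or 2 (0.128).

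BCL2L2 (ENSG00000129473), which encodes BCL-W, had the fewest reads of the 7 genes and, like BCL2, its highest level in the RelB-labelled cells. Control libraries had 208, 216 and 230 units (218 ± 11.0), the cRel-labelled 217, 213 and 239 (223 ± 13.9) and the RelA knockout 213, 219 and 238 (223 ± 13.3). These 3 groups overlapped, with log2 fold changes of 0.03 in both comparisons (limma adjusted p = 0.873 and 0.872). The p50 knockout had 300, 299 and 305 units (301 ± 2.90) and the p52 knockout 277, 341 and 333 (317 ± 34.9). Both lay wholly above the control, by 0.47 (limma adjusted p = 3.12e-04) and 0.53 (3.19e-05). The RelB-labelled libraries, at 563, 545 and 575.5 units (561 ± 15.3), were above every other library. That rise was 1.36 with an SE of 0.09, or 2.57-fold (limma adjusted p = 1.16e-11), and 4.2% of tested genes lay as far up. Of the 10 pairs of knockouts, 8 differed; the exceptions were cRel-labelled against RelA (0.00, limma adjusted p = 0.992) and p50 against p52 (-0.07, 0.651). The readthrough locus BCL2L2-PABPN1, which shares exons with BCL2L2, had 0 to 8 reads per library. The sources used here do not state how reads in shared exons were assigned, so both counts may leave out reads.

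The summed level of a monocyte and macrophage marker list, of which 6 of 7 genes were in the table, was higher in the groups in which BCL2 and BCL2L2 were high. It was 388 to 422 units in the control, 627 to 704 in the p50 knockout, 597 to 696 in the p52 knockout and 738 to 777 in the RelB-labelled libraries. CSF1R, the receptor for the macrophage growth factor CSF1, made up most of each sum, at 307 to 758 units per library. The defining monocyte marker CD14 was at 0 to 3.16 units and the lysosomal macrophage marker CD68 at 0 to 2.59, so the list moved through CSF1R while CD14 and CD68 stayed near 0. Of 9 T and NK cell markers 7 were in the table, and their sum was 412 to 556 units in the control and 698 to 770 in the RelB-labelled libraries. NKG7, a granule protein of killer cells, made up most of it, and the T-cell receptor component CD3D was at 0 in 12 of 18 libraries. Of the 4 markers that passed the filter, 2 rose and 1 fell in the RelB-labelled cells: NKG7 rose by 0.73 and the co-receptor gene CD4 by 1.11, from 8.62 to 19.8 units (limma adjusted p = 1.37e-06 and 0.00504). GNLY, which encodes the killer-cell granule protein granulysin, fell from 29.4 units in the control to 8.01 in the RelB-labelled cells, 9.87 with p50 targeted and 9.06 with p52 targeted (limma adjusted p = 9.12e-05, 8.46e-04 and 3.86e-04). The markers of this list thus did not move together. Of 6 fibroblast and epithelial markers, the collagen gene COL1A1 was at 707 to 1570 units and EPCAM at 22.7 to 59.3. COL1A1 fell by 0.65 in the p50 knockout (limma adjusted p = 2.06e-04), the only call in that list. The part of these markers in the results for the 7 genes was not tested.

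BCL2L1 (ENSG00000171552), which encodes BCL-XL, moved the other way. The control libraries had 2123, 2095 and 2310 units (2176 ± 117), and none of the 15 knockout libraries reached the lowest of them. The cRel-labelled libraries had 1391, 1407 and 1290 (1363 ± 63.4) and the RelB-labelled 1347, 1422 and 1308 (1359 ± 57.7). Their log2 fold changes were -0.67 and -0.68, each with an SE of 0.07 and a 1.60-fold fall (limma adjusted p = 1.70e-06 and 2.67e-08). The falls had near-equal size, yet 0.945% of tested genes lay as far down in the cRel-labelled comparison and 10.4% in the RelB-labelled one.

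In the p50 knockout, BCL2L1 had 1522, 1381 and 1325 units (1409 ± 101) and fell by 0.63 on the log2 scale (limma adjusted p = 1.23e-06). In the p52 knockout it had 1749, 1483 and 1475 (1569 ± 156) and fell by 0.47 (limma adjusted p = 1.04e-05). The RelA knockout kept the most, at 1797, 1822 and 1717 units (1779 ± 55.2), and fell by 0.29 (limma adjusted p = 0.0163). That last call was lost without control 3 (0.084), without RelA 3 (0.084) and without control 3, p52 3 and RelA 2 together (0.068).

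Among the knockouts, BCL2L1 was higher in the RelA knockout than in the cRel-labelled cells by 0.38 (limma adjusted p = 6.78e-04). It was also higher there than in the RelB-labelled cells, by 0.39 (limma adjusted p = 5.71e-05), and than in the p50 knockout, by 0.34 (7.51e-04). The cRel-labelled, RelB-labelled and p50 groups overlapped and were not separated in any of their 3 pairs. The p52 knockout differed from the cRel-labelled cells, the RelB-labelled cells and the RelA knockout by 0.18 to 0.20 (limma adjusted p = 0.0243 to 0.0345). Those 3 calls were lost in several fits: cRel-labelled against p52 without cRel-labelled 3 (0.12) or p52 1 (0.187); p52 against RelB-labelled without p52 1 (0.178), RelB-labelled 1 (0.061) or 3 (0.0917) and after quantile normalisation (0.0534); and p52 against RelA without p52 2 (0.144) or 3 (0.13), RelA 1 (0.084) or 2 (0.0977), without the 3 libraries together (0.202) and after quantile normalisation (0.109).

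The upstream sequence of BCL2L1 is shown because this gene fell in every comparison. RefSeq windows of GRCh38.p14 covering the 250 bases before a start site were held for 5 of the 7 genes, in 11 windows. The windows were searched on both strands for a loose NF-kB-like motif (GGG and CC separated by any 5 bases) and for the NF-kB consensus, whose matches are also matches of the loose motif. The loose motif was found in 54.4% of 35116 windows of all genes and the consensus in 5.21%. Capitals mark matches of the loose motif, and a match is a description of letters only. The stretch of a BCL2L1 window that lies outside annotated exons (GENCODE 29), chr20:31723990-31724213 on the minus strand, ends 27 bases before the start site and held no match, nor did the other BCL2L1 window.
BCL2L1 upstream: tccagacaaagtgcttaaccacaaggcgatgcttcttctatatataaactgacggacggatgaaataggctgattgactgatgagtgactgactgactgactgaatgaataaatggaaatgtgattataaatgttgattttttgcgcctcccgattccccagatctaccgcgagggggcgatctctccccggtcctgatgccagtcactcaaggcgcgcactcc
The BCL2 window, chr18:63319770-63320019 on the minus strand, held the loose motif at 2 places and the consensus at none. The places are shown with their flanking bases from chr18:63319995-63320019 and chr18:63319869-63319898, which lie in annotated exons.
BCL2 distal: gctccGGGCCCTCCCtgccggcggc
BCL2 proximal: gcccggaggcGGGGTGCGCCggtggggtgc

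MCL1 (ENSG00000143384) encodes a short-lived guardian protein on which activated B cells depend. The control libraries had 5671, 5441 and 4644 units (5252 ± 539), and 4 of the 5 knockouts overlapped them. Their means were 5111 ± 279 in the cRel-labelled cells, 5076 ± 452 in the p50 knockout, 5254 ± 294 in the p52 knockout and 5173 ± 113 in the RelA knockout. Their log2 fold changes ran from -0.05 to 0.00, and the limma adjusted p from 0.656 to 0.97. The RelB-labelled libraries, at 4001, 3745 and 3630 units (3792 ± 190), lay below every other library. MCL1 fell there by 0.47 on the log2 scale, or 1.38-fold (limma adjusted p = 1.00e-05), and 19.2% of tested genes lay as far down. The RelB-labelled cells also differed from each of the other knockouts, by 0.42 to 0.47 (limma adjusted p = 1.62e-05 to 6.79e-05), and no pair among the other 4 was called.

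BCL2A1 (ENSG00000140379), which encodes BFL-1/A1, separated the knockouts into a low and a high set. The control libraries had 2435, 2182 and 2683 units (2433 ± 251). The RelA knockout had 1479, 1576 and 1590 units (1548 ± 60.6) and the cRel-labelled cells 1577, 2008 and 1685 (1757 ± 224). All 6 of those libraries lay below every control. The fall was 0.65 on the log2 scale in the RelA knockout, with an SE of 0.12, or 1.57-fold (limma adjusted p = 0.00186), and 1.26% of tested genes lay as far down. In the cRel-labelled cells it fell by 0.47 (limma adjusted p = 0.0211), with 2.04% of tested genes as far down. This call was lost without control 1 (0.0561), control 3 (0.113), cRel-labelled 1 (0.116) or cRel-labelled 3 (0.0955).

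BCL2A1 rose in the p50 knockout, with 2856, 3475 and 2994 units (3108 ± 325), by 0.35 (limma adjusted p = 0.0278). It rose in the p52 knockout, with 2764, 3035 and 4252 units (3350 ± 793), by 0.44 (limma adjusted p = 0.00469). As far up lay 15% of tested genes in the p50 comparison and 16.4% in the p52 one. Both knockouts lay above the highest control, and p52 3, at 4252, stood well apart from the other libraries of its group. Without p52 3 the p52 rise was 0.26 (limma adjusted p = 0.0439). That library is one of the 3 with a tilt towards short transcripts, BCL2A1 has the shortest exon length of the 7 genes (1089 bases), and the part of the tilt in this value was not tested. The p50 call was lost without control 1 (0.0552), control 2 (0.122) or p50 2 (0.141). The RelB-labelled libraries, at 2507, 2884 and 3147 units (2846 ± 322), overlapped the control, with a log2 fold change of 0.22 (limma adjusted p = 0.11). That value passed the test after quantile normalisation (0.34, 0.026), in a fit of these groups alone (0.0379), without RelB-labelled 1 (0.0483) and without control 3, p52 3 and RelA 2 together (0.0107).

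In direct comparison, BCL2A1 was lower in the RelA knockout than in the p52 knockout by 1.09 (limma adjusted p = 1.89e-07), than in the p50 knockout by 1.00 (1.49e-06) and than in the RelB-labelled cells by 0.87 (1.82e-06). The cRel-labelled cells were lower than the p52 knockout by 0.91 (limma adjusted p = 3.60e-06), than the p50 knockout by 0.83 (2.56e-05) and than the RelB-labelled cells by 0.70 (3.55e-05). All 6 of these pairs were without overlap between libraries. The cRel-labelled cells and the RelA knockout were not separated (0.18, limma adjusted p = 0.468), nor were the p50, p52 and RelB-labelled groups from one another; p52 against RelB-labelled passed the test without p52 1 (0.0313). BCL2A1 thus differed in 6 of 10 pairs. The BCL2A1 window, chr15:79971197-79971446, held no match of either motif, and all of it lay in annotated exons, so it is not shown.

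CFLAR (ENSG00000003402), whose product c-FLIP competes with caspase-8 at death receptors, was highest in the p52 knockout. Control libraries had 2641, 2640 and 2530 units (2604 ± 63.6) and the p52 knockout 3678, 3881 and 3734 (3764 ± 105). The p52 libraries lay above all others, and the rise was 0.53 with an SE of 0.06, or 1.45-fold (limma adjusted p = 2.60e-07). In that comparison 13.2% of tested genes lay as far up. The RelB-labelled libraries had 2978, 3221 and 3110 units (3103 ± 122) and rose by 0.25 (limma adjusted p = 8.34e-04), where 33.5% of tested genes lay as far up. The RelA knockout had 3006, 2956 and 3094 units (3019 ± 69.6) and rose by 0.21 (limma adjusted p = 0.0375). The cRel-labelled libraries, at 2987, 3012 and 2879 units (2959 ± 70.6), were likewise above every control but missed the threshold (0.18, limma adjusted p = 0.0739). The p50 knockout, at 2404, 2865 and 2701 units (2657 ± 234), overlapped the control (0.03, limma adjusted p = 0.774).

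The RelA call for CFLAR was lost in a fit of the RelA knockout and the control alone (0.0905), without any 1 of control 1 (0.0782), 2 (0.0524) or 3 (0.126) or RelA 1 (0.101), 2 (0.0618) or 3 (0.139), and without the 3 libraries together (0.105). The cRel-labelled value passed the test with a replicate block (0.048), edgeR (0.0486) and DESeq2 (0.0328). CFLAR differed in 7 of 10 pairs of knockouts, and the p52 knockout exceeded each of the others, by 0.28 over the RelB-labelled cells (limma adjusted p = 6.45e-04) to 0.51 over the p50 knockout (2.12e-06). The cRel-labelled cells, the RelA knockout and the RelB-labelled cells overlapped and were not separated, except RelB-labelled from RelA (0.0486) and from cRel-labelled (0.023) after quantile normalisation. The p50 knockout was lower than the RelB-labelled cells by 0.23 (limma adjusted p = 0.00308) and than the RelA knockout by 0.19 (0.0167), the latter lost without p50 1 (0.127), without RelA 3 (0.0579) and after quantile normalisation (0.189). The cRel-labelled cells were above p50 by 0.16 (limma adjusted p = 0.0481), a call lost without cRel-labelled 1 (0.124), 2 (0.127) or 3 (0.064), without p50 1 (0.273) or 3 (0.0712), after quantile normalisation (0.349), with TMM scaling (0.052), with edgeR (0.0567) and without the filter (0.0625). An antisense gene, CFLAR-AS1, had 2 to 16 reads per library.

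A window of CFLAR, chr2:201118466-201118715 on the plus strand, was the only one of the 11 windows with a match of the NF-kB consensus. The site, 97 to 88 bases before the start, is printed because it is that match, with its flanks from chr2:201118609-201118638. Of the 250 bases of this window, 225 lie in annotated exons, and capitals mark the match.
CFLAR site: cgcggggggcGGGGAATTCCgcagacagga
The other CFLAR windows held no consensus match.

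XIAP (ENSG00000101966) encodes an inhibitor that binds caspases directly. The control libraries had 859, 959 and 897 units (905 ± 50.6), and the RelB-labelled libraries had 1209, 1282 and 1350 (1280 ± 70.6). The RelB-labelled libraries lay above all others, and the rise was 0.50 with an SE of 0.07, or 1.41-fold (limma adjusted p = 1.78e-06). XIAP rose in the p52 knockout, with 1091, 1152 and 1192 units (1145 ± 51.2), by 0.34 (limma adjusted p = 3.54e-04), again without overlap with the control. In the p50 knockout it had 945, 1109 and 1052 units (1035 ± 83.6), overlapped the control and rose by 0.19 (limma adjusted p = 0.0363). As far up lay 21.2% of tested genes in the RelB-labelled comparison, 21.5% in the p52 one and 26.4% in the p50 one. The p50 call was lost without control 1 (0.133), control 3 (0.0762), p50 2 (0.177) or p50 3 (0.101), without the 3 libraries together (0.0556) and in a fit of these groups alone (0.1). The RelA knockout had 1083, 992 and 1052 units (1042 ± 46.3), above every control but not called (0.20, limma adjusted p = 0.1). The cRel-labelled libraries had 941, 927 and 1001 (956 ± 39.6; 0.08, limma adjusted p = 0.549).

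Among the knockouts, XIAP differed in 4 of 10 pairs. The RelB-labelled cells were above the cRel-labelled cells by 0.42 (limma adjusted p = 1.92e-05), the p50 knockout by 0.31 (8.58e-04) and the RelA knockout by 0.30 (8.12e-04), and the p52 knockout was above the cRel-labelled cells by 0.26 (0.00457). The RelB-labelled libraries also lay above all p52 libraries, by 0.16 (limma adjusted p = 0.0675). That difference passed the test without RelB-labelled 1 (0.0454), with a replicate block (0.0472), after quantile normalisation (0.0211) and without the 3 libraries together (0.0398). A XIAP window that lies outside annotated exons, chrX:123859458-123859707 on the plus strand, is shown as an example of a window with the loose motif alone, in capitals.
XIAP upstream: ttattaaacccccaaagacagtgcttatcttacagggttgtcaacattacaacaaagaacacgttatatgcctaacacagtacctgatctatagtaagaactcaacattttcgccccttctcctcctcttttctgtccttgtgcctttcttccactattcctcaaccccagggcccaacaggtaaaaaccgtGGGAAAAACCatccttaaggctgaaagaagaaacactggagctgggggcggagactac

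Levels of different genes were compared per kilobase of exon, since longer transcripts collect more reads. In the control, BCL2A1 stood at 2234 ± 230 units per kb (SD, n = 3), MCL1 at 1202 ± 123, BCL2L1 at 657 ± 35.3, BCL2 at 214 ± 30.3 and BCL2L2 at 52.1 ± 2.63. As shares of the summed level of these 5 genes, BCL2A1 made up 51.2% ± 3.64, MCL1 27.6% ± 3.31, BCL2L1 15.1% ± 0.653, BCL2 4.92% ± 0.759 and BCL2L2 1.20% ± 0.070. BCL2A1, the shortest of the 5, thus held the largest share, and BCL2L2 the smallest. The BCL2L2 share rests on a count that may leave out reads in exons shared with BCL2L2-PABPN1. These shares describe RNA, and the proteins differ in half-life.

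The make-up of this sum is given for the other groups as a description, without a test. The share of BCL2 was 13.1% ± 0.606 in the RelB-labelled cells, and its level per kb, 604 ± 6.80 units, exceeded that of BCL2L1, 410 ± 17.4, in every RelB-labelled library. In every other group the order of BCL2 and BCL2L1 was the opposite, with 374 against 473 units per kb in the p52 knockout. MCL1 held 18.8% ± 2.01 in the RelB-labelled cells and 34.8% ± 1.07 in the RelA knockout. The share of BCL2A1 was 41.8% ± 1.28 in the RelA knockout, 46.0% ± 2.72 in the cRel-labelled cells, 58.6% ± 1.13 in the p50 knockout, 58.6% ± 6.33 in the p52 knockout and 56.3% ± 3.32 in the RelB-labelled cells. The summed level per kb was lowest in the RelA knockout, at 3401 ± 30.1 units, and in the cRel-labelled cells, at 3500 ± 253, against 4359 ± 177 in the control. It was 4869 ± 412 in the p50 knockout, 5202 ± 647 in the p52 knockout and 4628 ± 255 in the RelB-labelled cells. With the longest transcript as the length in place of all exons, BCL2 still exceeded BCL2L1 in the RelB-labelled cells, at 952 ± 10.7 against 521 ± 22.1 units per kb. In the p50 knockout the order turned with that choice, from 356 against 425 units per kb to 562 against 540. The p52 means kept their order but came close, at 590 ± 29.9 against 601 ± 59.8 units per kb.

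**Figure D3:**
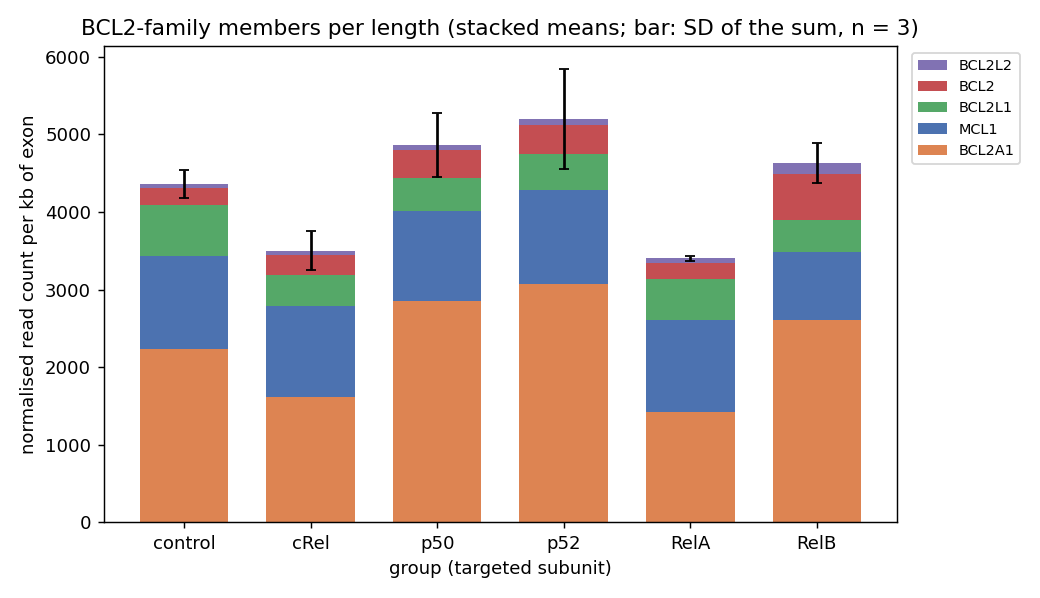
Normalised read count per kb of exon for the 5 BCL2-family genes, stacked as means of 3 libraries per group, with bars of 1 SD of the sum. The BCL2A1 block is smallest in the RelA knockout and the cRel-labelled cells, and the BCL2 block is largest in the RelB-labelled cells.

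The rest of the cell-death pathway was read from 8 lists with 41 genes, of which 37 passed the filter. In the cRel-labelled cells 2 of these rose and 2 fell, and the RelA knockout had 2 that rose and 1 that fell. There were 5 and 12 such genes in the p50 knockout, 9 and 10 with p52 targeted, and 10 and 14 in the RelB-labelled cells. The share called was 10.8% in the cRel-labelled cells, 8.11% in the RelA knockout, 45.9% in the p50 knockout, 51.4% in the p52 knockout and 64.9% in the RelB-labelled cells. Over all tested genes it was 6.09%, 5.55%, 36.7%, 50.8% and 67.8% in the same order, so the shares in the p52 knockout and the RelB-labelled cells were near the background. Their median log2 fold change was 0.01 in the cRel-labelled cells, -0.02 in the RelA knockout, -0.05 in the p50 knockout, 0.05 in the p52 knockout and 0.01 in the RelB-labelled cells. Of the pore formers BAX and BAK1, BAX was not called in any comparison. BAK1, whose product BCL-XL and MCL1 restrain, fell in 4: by 0.36 in the p50 knockout (limma adjusted p = 0.00102), by 0.26 in the p52 knockout (0.00745) and by 0.59 in the RelB-labelled cells (5.07e-07). In the cRel-labelled cells it fell by 0.26 (limma adjusted p = 0.0433), a call lost in 10 other fits, among them those without control 1 (0.0973), 2 (0.0618) or 3 (0.116) and without cRel-labelled 2 (0.196) or 3 (0.125). The p52 call was lost without control 3, p52 3 and RelA 2 together (0.0685).

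Among the 7 BH3-only genes, BCL2L11, which encodes BIM, moved in opposite directions. It had 1645, 1574 and 1349 units in the control libraries, 2381, 2358 and 2480 in the cRel-labelled libraries and 751, 733 and 691 in the RelB-labelled libraries. The cRel-labelled libraries all lay above the control and the RelB-labelled libraries all below it. The log2 fold changes were 0.66 (limma adjusted p = 1.26e-04) and -1.07 (3.77e-09), and BCL2L11 also fell by 0.32 with p50 targeted (0.0141). BBC3, which encodes the p53-induced killer PUMA, rose by 0.70 in the p50 knockout (limma adjusted p = 5.12e-06), by 0.88 in the p52 knockout (6.31e-08) and by 0.61 in the RelB-labelled cells (3.38e-06). BID, the link from death receptors to mitochondria, fell by 0.62 in the RelB-labelled cells (limma adjusted p = 1.60e-07), by 0.32 in the p50 knockout (0.00174) and by 0.22 in the p52 knockout (0.0167). PMAIP1, which encodes the MCL1 antagonist NOXA, fell by 0.40 in the p52 knockout (limma adjusted p = 3.49e-05; -0.25 and 0.00671 after quantile normalisation) and rose by 0.26 in the RelB-labelled cells (0.00175). No BH3-only gene was called in the RelA knockout.

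Of 4 further inhibitor-of-apoptosis genes, BIRC3, which encodes cIAP2 and is an NF-kB target, fell in the RelA knockout by 0.53 (limma adjusted p = 1.92e-06) and in the p50 knockout by 0.25 (0.00179; 0.168 after quantile normalisation). It rose in the RelB-labelled cells by 0.64 (limma adjusted p = 2.16e-09) and in the p52 knockout by 0.25 (0.00105; 0.46 after quantile normalisation). BIRC2, which encodes cIAP1, rose in the same 2 groups, by 0.43 and 0.19 (limma adjusted p = 1.95e-05 and 0.0377). BIRC5, which encodes the mitotic protein survivin, fell in the p50 and p52 knockouts and the RelB-labelled cells, by 0.56, 0.77 and 1.39 (limma adjusted p = 8.13e-05, 5.61e-07 and 1.76e-11). Among 3 antagonists of XIAP, XAF1 fell by 0.68 in the p50 knockout (limma adjusted p = 1.59e-05) and rose by 0.64 in the RelA knockout (1.86e-04), and the others were not called.

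Of the 9 genes of the apoptosome and the caspases, 7 fell and 1 rose in the RelB-labelled cells, 5 fell and 0 rose in the p52 knockout, and 4 fell and 1 rose in the p50 knockout. Of all tested genes 34.7%, 26.4% and 19.6% fell in those comparisons. APAF1, which encodes the scaffold of the apoptosome, was the gene that rose: by 0.64 in the RelB-labelled cells (limma adjusted p = 3.53e-05) and by 0.36 in the p50 knockout (0.0163), where its libraries overlapped the control. CASP6, which encodes a downstream caspase, fell by 0.73 in the RelB-labelled cells (limma adjusted p = 2.04e-09). It also fell in the cRel-labelled, p50 and p52 groups, by 0.29, 0.39 and 0.47 (limma adjusted p = 0.00808, 8.69e-05 and 3.50e-06), and rose by 0.32 in the RelA knockout (0.00363). CYCS, which encodes cytochrome c, fell by 0.39 with p50 targeted, 0.62 with p52 targeted and 0.65 in the RelB-labelled cells (limma adjusted p = 5.48e-04, 1.23e-06 and 2.12e-07). Of the 7 death receptors and adaptors, 5 rose and 1 fell in the p52 knockout, where CFLAR was highest, 4 rose and 2 fell in the RelB-labelled cells, and 2 rose and 1 fell with p50 targeted. Of all tested genes 24.5%, 33.1% and 17% rose in those comparisons. FAS rose in the p52 knockout by 0.68 (limma adjusted p = 3.63e-07), in the RelB-labelled cells by 0.39 (1.62e-04) and in the cRel-labelled cells by 0.32 (0.0138; 0.0724 without control 3 and 0.061 without cRel-labelled 2). TRADD, the adaptor of TNF receptor 1, rose in the p52 knockout by 0.75 (limma adjusted p = 2.08e-06). TNFRSF10B, the TRAIL receptor DR5, rose by 0.80 and RIPK1, the receptor-bound kinase, fell by 0.78 in the RelB-labelled cells (limma adjusted p = 1.30e-10 and 2.95e-10). TNFRSF10B and the TNF receptor gene TNFRSF1A rose by 0.31 and 0.40 in the p50 knockout (limma adjusted p = 4.97e-04 and 5.07e-04) and by 0.40 and 0.44 with p52 targeted (1.23e-05 and 1.01e-04), and TNFRSF1A by 0.75 in the RelB-labelled cells (3.29e-08). RIPK1 also fell in the p50 and p52 knockouts, by 0.29 and 0.17 (limma adjusted p = 9.87e-04 and 0.0281). FADD, the adaptor between FAS and caspase-8, fell by 0.83 in the RelB-labelled cells (limma adjusted p = 3.19e-07).

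The necroptosis list held RIPK3 and MLKL, the kinase and the membrane-breaking protein of caspase-independent death. MLKL rose in the RelB-labelled cells by 0.38 (limma adjusted p = 0.0026; 0.0598 after quantile normalisation). RIPK3 fell there by 0.31 (limma adjusted p = 0.0448; -0.67 and 1.73e-04 after quantile normalisation), a call lost in 10 other fits, among them those without control 1 (0.0928), 2 (0.0937) or 3 (0.0629) and RelB-labelled 2 (0.209). RIPK3 also fell in the p50 knockout, by 0.38 (limma adjusted p = 0.0274), a call lost in 8 other fits, among them those without control 1 (0.0631) or 2 (0.0666) and p50 2 (0.151) or 3 (0.0568). Among the 3 genes for turnover of the MCL1 protein, none was called in the RelB-labelled cells, in which MCL1 RNA fell. The ligase gene FBXW7 rose by 0.21 in the p50 knockout (limma adjusted p = 0.00657). USP9X, a deubiquitinase of MCL1, rose by 0.31 in the p52 knockout (limma adjusted p = 0.0146), a call lost without control 3 (0.147), p52 1 (0.0955) or p52 2 (0.0602) and in a fit of these groups alone (0.0912).

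**Figure D4:**
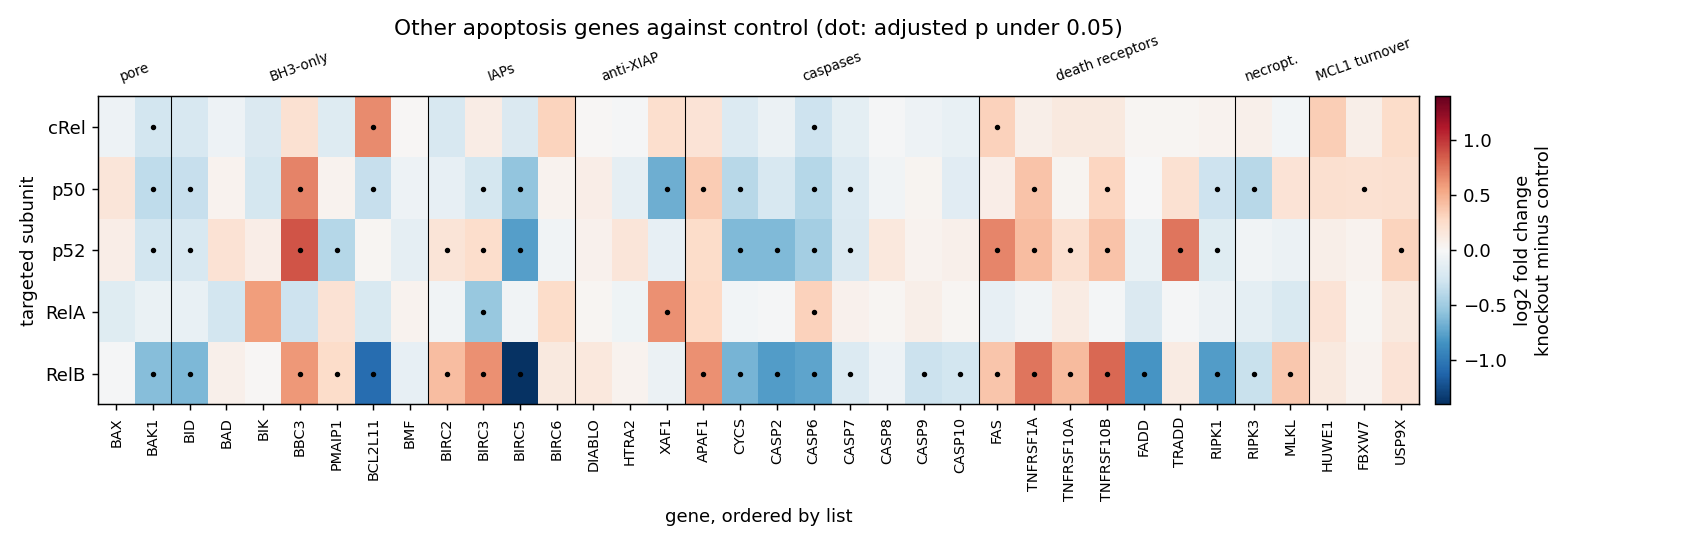
Log2 fold change against the control of the other apoptosis genes reported here, with knockouts in rows and genes in columns ordered by list; the colour scale runs from blue (lower) to red (higher) and dots mark an adjusted p under 0.05. BCL2L11 is red in the cRel-labelled row and blue in the RelB-labelled row, and BIRC5 is darkest blue in the RelB-labelled row.

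The genes with the most similar profile were sought by the root-mean-square difference in log2 level over the 18 libraries, each gene centred on its mean, among 9847 genes with a mean of at least 100. The search covered the 5 genes whose group means spanned at least 0.5, which left out MCL1 and, by a margin within rounding, XIAP. For BCL2, whose own profile had a root-mean-square size of 0.55, the nearest was the semaphorin gene SEMA6A at 0.11, followed by the ubiquitin ligase gene CBLB at 0.13 and PCED1A at 0.13. SEMA6A had 106 ± 16.1 units in the control and 312 ± 26.8 in the RelB-labelled cells. For BCL2L2 they were the noncoding LINC00847 (0.12), ST3GAL6 (0.12) and the angiogenic factor gene VEGFA (0.13), against a size of 0.48. VEGFA had 1162 ± 38.3 units in the control and 2654 ± 220 in the RelB-labelled cells. For BCL2L1 the nearest gene was BAK1 (0.15), followed by YIF1B (0.15) and POLR2E (0.17), against a size of 0.26. BCL2A1 lay nearest to FAM162A (0.16), SNHG8 (0.18) and SIT1 (0.18), against 0.44, and CFLAR to SPN, which encodes the sialophorin CD43 (0.099), MICAL1 (0.10) and the clock gene ARNTL (0.10), against 0.18. These are descriptions over libraries that share their processing and size factors.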

How the data were processed

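The submitters' processing notes name STAR 2.5.2b, featureCounts 1.5.1, DESeq2 1.14.1 and the build GRCh37. The sources used here do not state the annotation release, the strand setting of the counting or a gene filter, so overlapping and antisense genes were not separated. The deposited signal is a normalised read count: dividing each library by its step of 1 read gave whole reads, within 0.001, for 100% of 308790 values. Each group had 3 libraries of 15.2 to 37.5 M reads.

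Differences were tested with limma 3.58.1 (trended variance, two-sided) on log2(value + 1), fitting the 18 libraries together for the 12381 genes whose mean was 10 or more. Log2 fold changes on this scale understate the change of genes with few reads. P-values were adjusted by Benjamini-Hochberg within each contrast over all tested genes. On the recovered reads, edgeR 4.0.16 (quasi-likelihood test) called 814, 4588, 6381, 671 and 8414 genes in the cRel-labelled, p50, p52, RelA and RelB-labelled comparisons, against 754, 4539, 6295, 687 and 8391 with limma; DESeq2 1.42.0 served as a further alternative. Other settings were pseudocounts of 0.5 and 10, a minimum mean of 100 or no filter, quantile normalisation, TMM scaling, a replicate block, fits of the compared groups alone and leaving out each library. A fit without control 3, p52 3 and RelA 2 together and the search for the NF-kB consensus were chosen after seeing the data. Exon lengths came from GENCODE 29 and upstream sequences from RefSeq, both on GRCh38, matched by gene; the deposited values carry no coordinates.

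The members, gene lists and tests were chosen with earlier results of these data known. Named genes were the 7 members, the 5 subunit genes, up to 2 called genes with the smallest p per list and knockout, and the 3 nearest profiles of each eligible member. GNLY, CD4, CD79A, PAX5, COL1A1, EPCAM, FADD, BIRC2, APAF1, the change of MS4A1 and further comparisons of genes that this rule names were added after their values were seen. One gene that this rule selects is counted within its list but not reported here by name.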

Additional observations from a re-analysis of the deposited data

How the results depend on the processing

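The count of the 7 genes called against the control was 2 in the cRel-labelled cells and ran from 1 to 2 when 1 library was left out, falling to 1 without control 3, cRel-labelled 1 or cRel-labelled 3. In the p50 knockout it was 5, from 3 to 5 when 1 library was left out, with 3 called without control 1 or p50 2. In the RelA knockout it was 3, from 1 to 2 when 1 library was left out, and 1 without control 3, p52 3 and RelA 2 together. The p52 count was 6 in every fit run, the RelB-labelled count 6 or 7, and the F-test called 7 of 7 in every fit. Over the pairs of knockouts, 41 to 45 of 70 were called. Of the 35 differences from the control, 5 lost their call in at least 1 fit and 3 gained one, as given with each gene, and no called value changed sign. Replicate numbers were not taken as pairs, because all 3 same-numbered correlations with the control exceeded 0.1 in 0 of 5 knockouts, although 16 of 18 libraries correlated best with their own number. This rule did not look at correlations between knockouts. With the replicate block the counts were 3, 5, 6, 3 and 6 in the cRel-labelled, p50, p52, RelA and RelB-labelled comparisons, and 45 pairs were called. Over all tested genes the block raised the calls from 754, 4539, 6295, 687 and 8391 to 940, 4870, 6557, 834 and 8557, in that order. The cause of these changes was not tested. With 3 libraries per group, differences within about the spread between libraries may have been missed. Some were called although libraries overlapped, as for XIAP in the p50 knockout.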
